A study of Mus musculus with 15 samples.

Results

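The response of the kidney to unilateral ureteral obstruction (UUO, surgical closure of the ureter of 1 kidney, a model of kidney fibrosis) was set against the response of the lung of mice that had the same surgery. The quantity is a difference of effects for each gene: the change from healthy to UUO kidney, minus the change from healthy lung to the lung of UUO mice. It uses 11 of the 14 samples of the series, on 12 of its 15 arrays, and 7 of its 10 mice. All were BALB/c mice, and total RNA of lungs and kidneys was measured on Illumina expression arrays. The groups were healthy kidney (n = 3, mice H557, H563 and H565), kidney of mice with UUO (n = 2, H656 and H658), healthy lung (n = 3, from the mice that gave the healthy kidneys) and UUO-mouse lung (n = 3, H657, H658 and H660). The lung of H658 was hybridised to 2 arrays, which were averaged, and H658 is the only UUO mouse with both organs. The sources used here do not give which kidney of a UUO mouse was taken, whether healthy mice had a sham operation, the time between surgery and sampling, or the sex and age of the mice. The spread behind every test is pooled over these groups and the remaining lung group of the series, made fibrotic with bleomycin.

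Closing the ureter raises pressure in the tubules behind it. Tubule cells are stretched, lose their transport and fatty acid burning functions and express injury genes, while macrophages enter and fibroblasts turn into matrix-producing myofibroblasts. The lung lies outside the obstructed tract and can be reached only through blood, nerves or whole-body changes in metabolism and feeding, so the comparison sets a local beside a distant response.

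The organs carried their markers. Of 26 measured proximal tubule markers, 24 to 26 were above background in each of the 5 kidneys and 9 to 12 in each of the 6 lungs, and all 16 alveolar type 2 markers were above background in every lung. Further features of the samples run through the results. First, the transcripts of sex chromosomes differed between healthy and UUO mice: Eif2s3y, on the Y chromosome, was at 8.94 to 9.64 on the log2 scale in the 6 healthy samples and at 4.37 to 4.48, background, in the 5 UUO samples, and Xist, made from an inactive X chromosome, was at 4.31 to 4.71 in the healthy samples and at 10.44 to 11.70 in the UUO samples. Sex and obstruction therefore cannot be told apart in either organ. Second, all 19 measured liver transcripts were above background in healthy lung 3 (median 13.27) and UUO-mouse lung 1 (median 11.42), against 6 or 7 of 19 and medians of 4.55 to 5.17 in the other 4 lungs. The same transcripts were above background in 18, 17 and 14 of 19 in the healthy kidneys (medians 8.50, 7.47 and 7.19) and in 10 and 11 in the UUO kidneys (5.94 and 5.65), and their part in the kidney falls was not tested. In addition, some transcripts of lung epithelium were high in both UUO kidneys, as given below. The tissue field of healthy kidney 1 names the lung, but its title and source name the kidney and its proximal tubule markers (25 of 26 above background, median 11.48) were at the level of the other healthy kidneys.

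More genes passed the test in the UUO kidney than in the lung of UUO mice, with 2 samples of one and 3 of the other. Of 11648 genes tested with limma, 5003 (43.0%) passed an adjusted p of 0.05 in kidney, 3032 of them higher (26%) and 1971 lower (16.9%) after UUO. In lung 1265 (10.9%) passed, 677 higher (5.81%) and 588 lower (5.05%). The difference of the effects passed for 3215 genes (27.6%), 1930 higher in the direction of the kidney (16.6%) and 1285 lower (11%), so 60.0% of these calls were higher. Median scaling gave a share of 90.8% and the deposited matrix a share of 46.5%, 2 settings that moved the median difference of all genes from 0.07 to 0.61 and to -0.09. In kidney 60.6% of the calls were higher, against 78.0% and 34.6% in those settings, and in lung 53.5%, against 3.29% and 15.9%. Directions of single genes below are those of quantile normalization, in which the medians of all genes were 0.12 in kidney and 0.05 in lung. The check of signs under the 5 other background corrections and scalings covered the genes named by size of change and the 10 always named. None of them turned a kidney or lung change above 0.3 on the log2 scale. Members picked only from the gene lists, by adjusted p, were not part of this check.

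Among the 3215 genes that passed in the difference, the kidney changed more in 2766 and the lung in 449. Their probe was at background in every lung sample for 161 (5.01%) and in every kidney sample for 51 (1.59%). Genes called alike in both organs numbered 506 (4.34%), which is 10.1% of the kidney calls and 40.0% of the lung calls. Genes called in opposite directions numbered 143 (1.23%), which is 2.86% of the kidney calls and 11.3% of the lung calls. A class of 329 genes (2.82%) passed in the difference and in lung and changed more in lung than in kidney. It overlaps the others, and 286 of its genes were neither alike nor opposite.

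**Figure D1:**
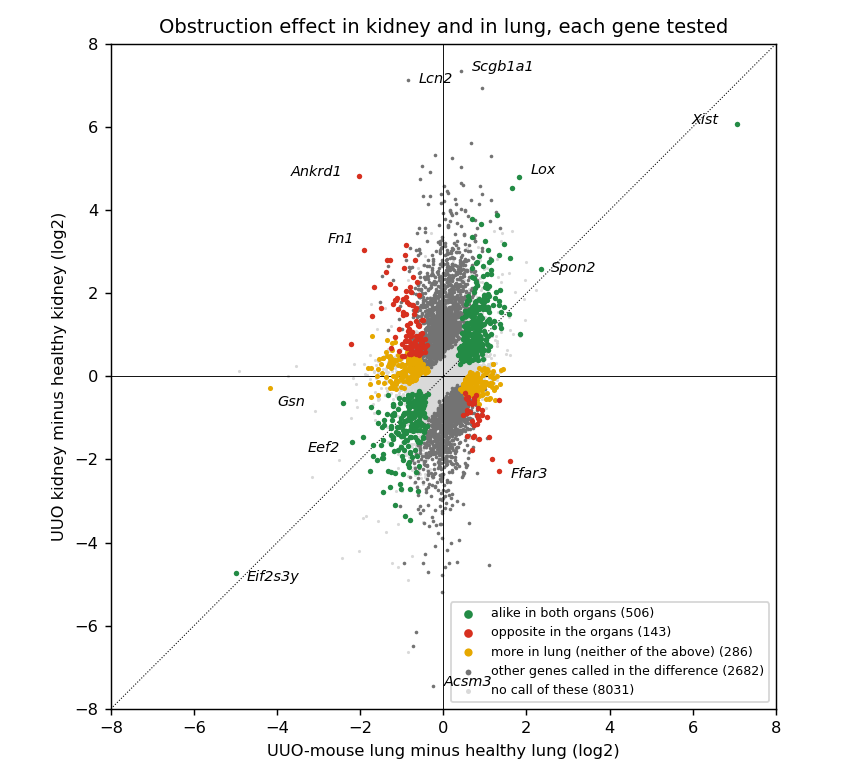
Each point is a gene, with its change in lung (x axis, UUO-mouse minus healthy lung, log2) against its change in kidney (y axis, UUO minus healthy kidney, log2), and the dotted line marks equal changes. The cloud is taller than it is wide, green genes (506) changed alike in both organs, red genes (143) in opposite directions, and yellow genes changed more in lung and are in neither of those classes.

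The lung counts rest on few samples. The 1265 lung calls became 303 without UUO-mouse lung 3, 483 without healthy lung 1, 523 without healthy lung 3, 670 without UUO-mouse lung 1 and 838 without healthy lung 2. The genes called alike became 119 without UUO-mouse lung 3, 170 without healthy lung 3, 194 without healthy lung 1 and 284 without UUO-mouse lung 1. The opposite genes became 41, 65, 56 and 83 in the same order of samples left out, and 90 without healthy lung 2. Those that changed more in lung became 114 without UUO-mouse lung 3, 163 without healthy lung 1 and 210 without UUO-mouse lung 1. Without both lungs that carried liver transcripts, 345 genes passed in lung, 114 were alike and 39 opposite. The counts of the difference (2585 to 3647) and of the kidney (3741 to 5025) moved less when 1 sample was left out.

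Injury genes led the kidney side of the difference. Lcn2, lipocalin 2, an iron-siderophore carrier released by injured tubules and neutrophils, was at 5.29, 5.66 and 6.55 in the healthy kidneys and at 11.17 and 14.78 in the UUO kidneys. In the lungs it was at 9.50, 10.80 and 9.53 in healthy mice and at 8.38, 9.47 and 9.41 in UUO mice. The UUO kidneys lay far above the healthy ones and UUO kidney 2 far above UUO kidney 1, while all UUO-mouse lungs lay just below the healthy lungs. The difference of the effects was 8.0 ± 1.09 (SE; limma, adjusted p = 0.000321), from 7.14 ± 0.81 in kidney (141-fold) and -0.85 ± 0.73 in lung (adjusted p = 0.484). Within mice, kidney minus lung was -5.51, -3.84 and -2.98 in the healthy animals and 5.30 in H658. Timp1, an inhibitor of matrix metalloproteinases, was at background in the healthy kidneys (4.31, 4.42 and 5.0) and at 9.40 and 13.61 after UUO, at least 76.5-fold higher. Such a bound replaces each dim sample by the lowest signal that any probe above background reached on its array, unless the probe itself read higher, and compares the group means. The lungs were at 7.40, 8.07 and 7.05 in healthy and at 8.09, 9.07 and 8.18 in UUO mice, all UUO-mouse lungs just above the healthy ones without passing (adjusted p = 0.466), and the difference was at least 5.31 (adjusted p = 0.00282).

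Atf3, a stress-induced transcription factor, rose by 4.76 ± 0.53 in kidney, where the healthy samples were at 5.42, 4.41 and 4.61 and the UUO samples at 9.36 and 9.77. The lungs overlapped (5.53, 7.27 and 6.59 against 5.35, 6.13 and 6.19), and the difference was 5.33 ± 0.71 (adjusted p = 0.000269). The macrophage chemokine Ccl9 rose by 5.61 ± 0.49 in kidney (from 4.99, 5.63 and 5.42 to 10.67 and 11.24) with overlapping lungs, a difference of 4.93 ± 0.66 (adjusted p = 0.000287). Fcrls, an Fc receptor-like molecule of macrophages, was at background in the healthy kidneys (4.66, 4.41 and 4.35) and at 9.77 and 9.71 after UUO, a difference of at least 4.28 (adjusted p = 7.04e-06). Ear3, a ribonuclease of the eosinophil family whose relatives are near-identical in sequence, had a difference of at least 4.77 (adjusted p = 5.29e-05), but 2 other probes of it gave 1.11 and 0.64, which did not pass. For Serpina10, a clotting inhibitor made by liver, the difference was 5.59 ± 1.65 (limma, adjusted p = 0.0253). Its lungs were of very unequal level: healthy lung 3 (9.98) and UUO-mouse lung 1 (8.51), the samples with liver transcripts, stood above the other 4 (5.28 to 5.63). These lungs belong to different groups. Over 29 other settings, which include leaving both out, the difference ran from 4.09 to 7.23.

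Other kidney rises were of genes at background in lung. Krt20, a keratin of stressed epithelium, was at background in all lungs (4.41 to 4.90) and healthy kidneys (4.36, 4.37 and 4.72) and at 8.47 and 11.14 in the UUO kidneys, at least 23.6-fold higher. The aggrecan-cleaving protease Adamts4 (at least 20.6-fold) and the epithelial envelope proteins Sprr2g (at least 10.8-fold) and Sprr2f (at least 8.57-fold) had the same pattern, with UUO kidney 2 above UUO kidney 1 in each, at 11.53 against 7.70, 10.19 against 7.17 and 10.87 against 5.82. Cyp4a14, a fatty acid hydroxylase, was at 7.18, 6.56 and 6.46 in the healthy and at 11.53 and 10.69 in the UUO kidneys, a rise of 4.38 ± 0.28. Cyp4a14 is also a gene with higher expression in female than in male mouse kidney.

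The largest negative differences included enzymes of tubule metabolism. Acsm3 and Cyp4b1 are also on the list of male-biased kidney genes, and the parts of sex and obstruction in their falls cannot be told apart. Acsm3, a medium-chain acyl-CoA synthetase, stood at 13.06, 12.94 and 12.85 in the healthy kidneys and at 5.66 and 5.33 in the UUO kidneys. Its lung values ran from 4.45 to 7.17 and overlapped between the groups. The difference was -7.19 ± 0.87 (adjusted p = 0.000159), and 3 other probes gave -6.40, -5.13 and -2.81, all past the threshold. Inmt, an amine methyltransferase that both organs expressed at high level, fell in kidney from 14.62, 14.46 and 14.57 to 11.32 and 9.77, but all lungs lay between 14.69 and 15.08 (difference -4.18 ± 0.45, adjusted p = 6.68e-05). Cyp4b1, a cytochrome P450 of lung and kidney, fell in kidney from 14.35, 14.10 and 14.03 to 9.83 and 9.09 while the lungs ran from 11.48 to 12.20 (difference -4.32 ± 0.29, adjusted p = 3.21e-06). Its pseudogene Cyp4b1-ps2 had -3.90 ± 0.27 (adjusted p = 4.37e-06), and transcripts of near-identical sequence cannot be told apart by hybridisation. Slc22a22, a prostaglandin transporter of tubules, had -4.29 ± 0.57, the steroid dehydrogenase Hsd17b11 -4.16 ± 0.46, the glucuronosyltransferase Ugt1a7c -3.66 ± 0.36 and the carboxylesterase Ces1f -3.56 ± 0.61, with adjusted p between 4.04e-05 and 0.00138.

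Of the genes at background in lung, those that fell most in kidney were the P450 genes Cyp2d12 and Cyp2j13, the transcripts 3110040M04Rik and Ct55, and Tbx10, a T-box factor. Cyp2d12 was at 10.26, 10.26 and 9.84 in the healthy kidneys and at 5.33 and 4.51 after UUO. Cyp2j13, a male-biased gene of mouse kidney, went from 11.77, 11.79 and 11.51 to 7.45 and 6.38. The UUO kidneys were at background for 3110040M04Rik, Ct55 and Tbx10, which makes these at least 22.8-fold, 17.4-fold and 13.1-fold lower. Of 15 measured male-biased kidney genes, 11 fell and 1 rose in kidney (median -2.71), so a fall of this kind and the absence of a Y-linked signal occurred in the same UUO kidneys, and their parts cannot be told apart. Of 9 female-biased kidney genes, 3 rose and 4 fell in kidney. Ugt8a of the male-biased list (-4.79 ± 0.18) and Cyp2a4 of the female-biased list (-5.64 ± 0.66) had differences of this size with lungs partly above background.

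**Figure D2:**
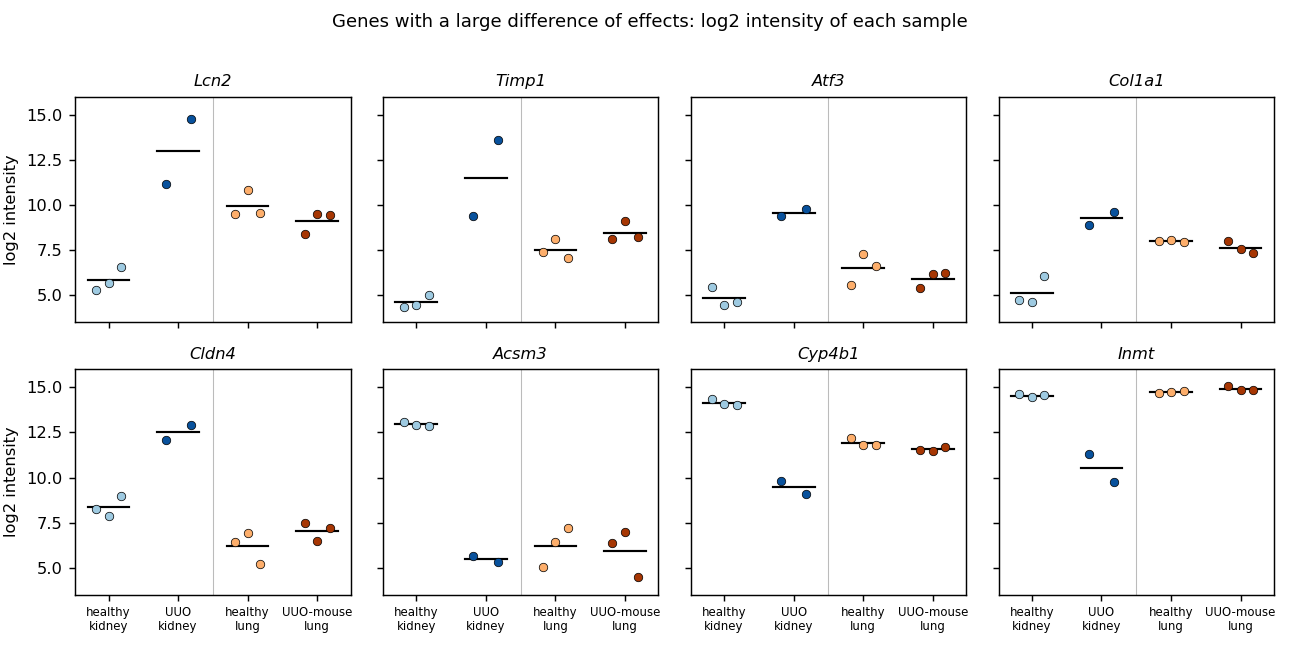
Log2 intensity of each sample (points) and the group mean (bars) for 5 genes with a large positive and 3 with a large negative difference of effects, in healthy and UUO kidney (blue) and healthy and UUO-mouse lung (orange). The UUO kidneys stand apart from the healthy kidneys in each panel, and the 2 lung groups lie close to each other.

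Some gene lists gave the same contrast by function. Their counts stand beside all genes tested, of which 16.6% were higher and 11% lower in the difference. The endoplasmic reticulum and chaperone list and the loop, distal tubule and collecting duct list, given below, were near these shares. Tubule injury and repair genes were higher in the difference in 23 of 27 and lower in none, with a median of 2.30, and 26 of 27 rose in kidney. The adhesion molecule Vcam1, an injury marker of tubules, was at 7.45, 7.37 and 7.52 in the healthy and at 11.56 and 11.32 in the UUO kidneys, a rise of 4.0 ± 0.17 with overlapping lungs and a difference of 3.85 ± 0.23 (adjusted p = 1.46e-06). The transcription factor Sox4 had a difference of 4.0 ± 0.33 (adjusted p = 1.48e-05). In lung 1 member passed, the small heat shock protein Cryab, which fell by 1.63 on the log2 scale. It was chosen after its values were seen. Havcr1, the kidney injury molecule KIM-1, was already at 9.30, 9.28 and 9.73 in the healthy kidneys and at 10.12 and 12.99 after UUO, so that its rise of 2.12 ± 0.61 passed (adjusted p = 0.0143) while its difference of 1.98 ± 0.82 did not (adjusted p = 0.0935).

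Matrix genes rose in kidney, and more of them fell than rose in lung. Of 35 fibrillar collagen and matrix genes, 28 were higher in the difference and none lower (median 2.43); 29 rose in kidney, while 2 rose and 7 fell in lung, where 3 fell without the lungs with liver transcripts. Col1a1, which encodes a chain of type I collagen, was at 4.71, 4.57 and 6.04 in the healthy and at 8.90 and 9.60 in the UUO kidneys, and between 7.31 and 8.03 in all lungs. Healthy kidney 3 stood above the other 2, the UUO kidneys above all 3, and the lung groups overlapped (difference 4.51 ± 0.60, adjusted p = 0.000269). Basement membrane genes were higher in 13 of 17 and lower in 2 (median 1.28), with the collagen IV chains Col4a2 at 2.96 ± 0.27 and Col4a1 at 2.87 ± 0.27 and, below 0, Col4a4 of the glomerular network at -0.76 ± 0.20 and the laminin chain Lama1 at -0.94 ± 0.32, a call lost in 17 of 29 other settings. Matrix proteases and inhibitors were higher in 13 of 21 (median 1.78). Myofibroblast, smooth muscle and pericyte genes were higher in 11 of 16 (median 1.68), and in 7 without UUO kidney 2. Tagln, a smooth muscle cytoskeletal protein, had 2.75 ± 0.35. Acta2, the actin of myofibroblasts, was at 10.21, 9.51 and 10.66 in the healthy and at 12.03 and 12.58 in the UUO kidneys, with lungs between 12.15 and 13.48 in both groups, and its difference was 2.32 ± 0.58 (adjusted p = 0.0113). Other probes of Acta2, above background in all 14 samples, gave 0.83 and -1.73, 0.84 and -1.33, and 2.53 and 0.09 in kidney and lung. Their differences were 2.55, 2.17 and 2.43. How far the difference came from a kidney rise or a lung fall therefore depended on the probe.

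Macrophage and monocyte markers were higher in the difference in 15 of 26 and lower in 1, with medians of 2.47 in kidney and 0.51 in lung. In bulk tissue, more cells of a type and more RNA per cell cannot be told apart. Lyz1, lysozyme, was at 10.25, 10.23 and 10.71 in the healthy and at 13.97 and 13.54 in the UUO kidneys, and between 14.84 and 15.04 in all lungs (difference 3.39 ± 0.25, adjusted p = 5.53e-06). Ly6c1 had the opposite sign (-1.14 ± 0.30). Lyz1 is also on the list of alveolar type 2 markers, some of which were high in the UUO kidneys, as given below. Which cells its kidney rise came from was not tested. MHC class II genes were higher in 7 of 9 (median 2.37): Cd74, the invariant chain, rose by 2.05 ± 0.28 in kidney and was at -0.83 ± 0.25 in lung, which did not pass (adjusted p = 0.0547). H2-Ab1 had a difference of 2.60 ± 0.39. Chemokines and cytokines were higher in 16 of 34 and lower in 1 (median 1.74). Ccl5, a T cell chemokine, was at 5.31, 5.33 and 5.38 in the healthy and at 10.17 and 9.36 in the UUO kidneys, with overlapping lungs (difference 4.31 ± 0.42, adjusted p = 3.79e-05). Csf2, which was at background in kidney and rose by 0.82 in lung, had -1.05 ± 0.31, a call lost in 9 of 29 settings. Complement genes were higher in 6 of 16 and lower in 1, with C1qb at 4.08 ± 0.47, the C1 inhibitor Serping1 at 2.47 ± 0.27 and the surface inhibitor Cd55 at -2.53 ± 0.42.

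Lymphocyte and neutrophil lists were short. Of 8 T cell markers 3 passed in the difference, beside 27.6% of all genes. They were 2 higher (Thy1, also a fibroblast surface protein, at 4.82 ± 0.60, and Cd3e at 1.04 ± 0.30) and 1 lower, Cd8b1 (-0.82 ± 0.24). Cd3e was at -0.35 with the deposited matrix values (adjusted p = 0.61). Of 8 B cell and plasma cell markers, Fcmr was the 1 that passed (1.21 ± 0.32), and of 15 neutrophil markers Lcn2 was the 1 that passed, against 4 without UUO kidney 1. The neutrophil list had medians of 1.66 in kidney and 0.70 in lung, and its median difference of 0.49 became 2.23 without UUO kidney 1 and -0.63 without UUO kidney 2.

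Immediate early genes were higher in the difference in 13 of 20 (median 2.08), with Klf6 at 2.65 ± 0.26 (adjusted p = 4.16e-05) beside Atf3. Cell cycle genes were higher in 18 of 28 (median 1.56); 20 rose in kidney and none passed in lung, where their median was -0.03. Mcm6, of the replicative helicase, was at 5.19, 6.11 and 5.11 in the healthy and at 7.64 and 8.29 in the UUO kidneys (difference 3.07 ± 0.39, adjusted p = 0.000206). Of 12 p53 targets, 4 were higher (2 without UUO kidney 2), among them Phlda3 (2.63 ± 0.39) and Gtse1 (1.68 ± 0.39). Acute phase, metallothionein and glucocorticoid response genes were higher in 5 of 26, near the 16.6% of all genes, with ceruloplasmin, Cp, at 3.49 ± 0.48. Their median difference was 0.92, and 1.64 without UUO kidney 1. Of 19 ribosomal protein and translation genes, 7 were higher (median 0.42), and 14 rose and 1 fell in kidney, among those higher Rps24 (1.06 ± 0.17) and Eef1b2 (1.21 ± 0.21).

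Of 26 proximal tubule markers, 7 were lower in the difference and 1 higher (median -0.81), and 12 fell in kidney. UUO kidney 2 had a median of 9.59 over these markers against 10.82 in UUO kidney 1 and 11.31 to 11.48 in the healthy kidneys, and the count of lower markers was 16 without UUO kidney 1 and 5 without UUO kidney 2. The phosphate and urate transporter Slc17a3 was at 11.64, 11.42 and 11.36 in the healthy and at 6.94 and 7.05 in the UUO kidneys (difference -4.0 ± 0.42, adjusted p = 5.92e-05), and the organic anion transporter Slc22a6 had -3.01 ± 0.31. The sulfate transporter Slc13a1 went the other way, from 8.68, 8.38 and 8.33 to 10.73 and 10.39 (2.27 ± 0.30, adjusted p = 0.000243). Among 28 markers of the loop, distal tubule and collecting duct, 3 were higher and 3 lower; without UUO kidney 1 they were 1 and 7, and without UUO kidney 2 they were 7 and 2. The magnesium channel Trpm6 had 1.66 ± 0.33, the intercalated cell factor Foxi1 0.71 ± 0.22 (lost in 13 of 29 settings), the water channel Aqp2 -1.43 ± 0.36 and the vasopressin receptor Avpr2 -1.07 ± 0.25. Umod, uromodulin of the thick ascending limb, was at 14.25 to 14.50 in the healthy and at 14.28 and 14.47 in the UUO kidneys, which overlapped (difference -0.10 ± 1.21, interval -2.74 to 2.53).

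Fatty acid oxidation genes were lower in the difference in 10 of 26 and higher in 1 (median -0.73), with 17 falling in kidney and 3 in lung. Respiratory chain genes gave no call in the difference with limma, at an unadjusted count over all genes of 4594 of 11648 under 0.05, and had a median of -0.04 that was above 0 under median scaling. In kidney 11 of 28 of them fell and in lung 5 of 28. Without UUO kidney 2 none fell in kidney and 2 rose, without UUO kidney 1 there were 6 lower in the difference, and without the lungs with liver transcripts none fell in lung. Cox5b had the smallest adjusted p of the difference (0.0854, difference 0.60 ± 0.24). Of 17 cholesterol synthesis genes, 5 were lower (8 without UUO kidney 1) and 2 higher, with Nsdhl at -2.61 ± 0.39, Cyp51 at -2.43 ± 0.45, Sc5d at 1.16 ± 0.18 and Fdps at 0.94 ± 0.29 (lost in 13 of 29 settings). Of 24 endoplasmic reticulum and chaperone genes, 3 were higher (7 without UUO kidney 1) and 3 lower, with Asns at 2.09 ± 0.43 and the calcium-binding chaperone Calr at -2.47 ± 0.33. Glycolysis and hypoxia genes gave 1 call each way, Pkm at 1.73 ± 0.34 and Car9 at -1.49 ± 0.33, and 5 higher without UUO kidney 1.

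**Figure D3:**
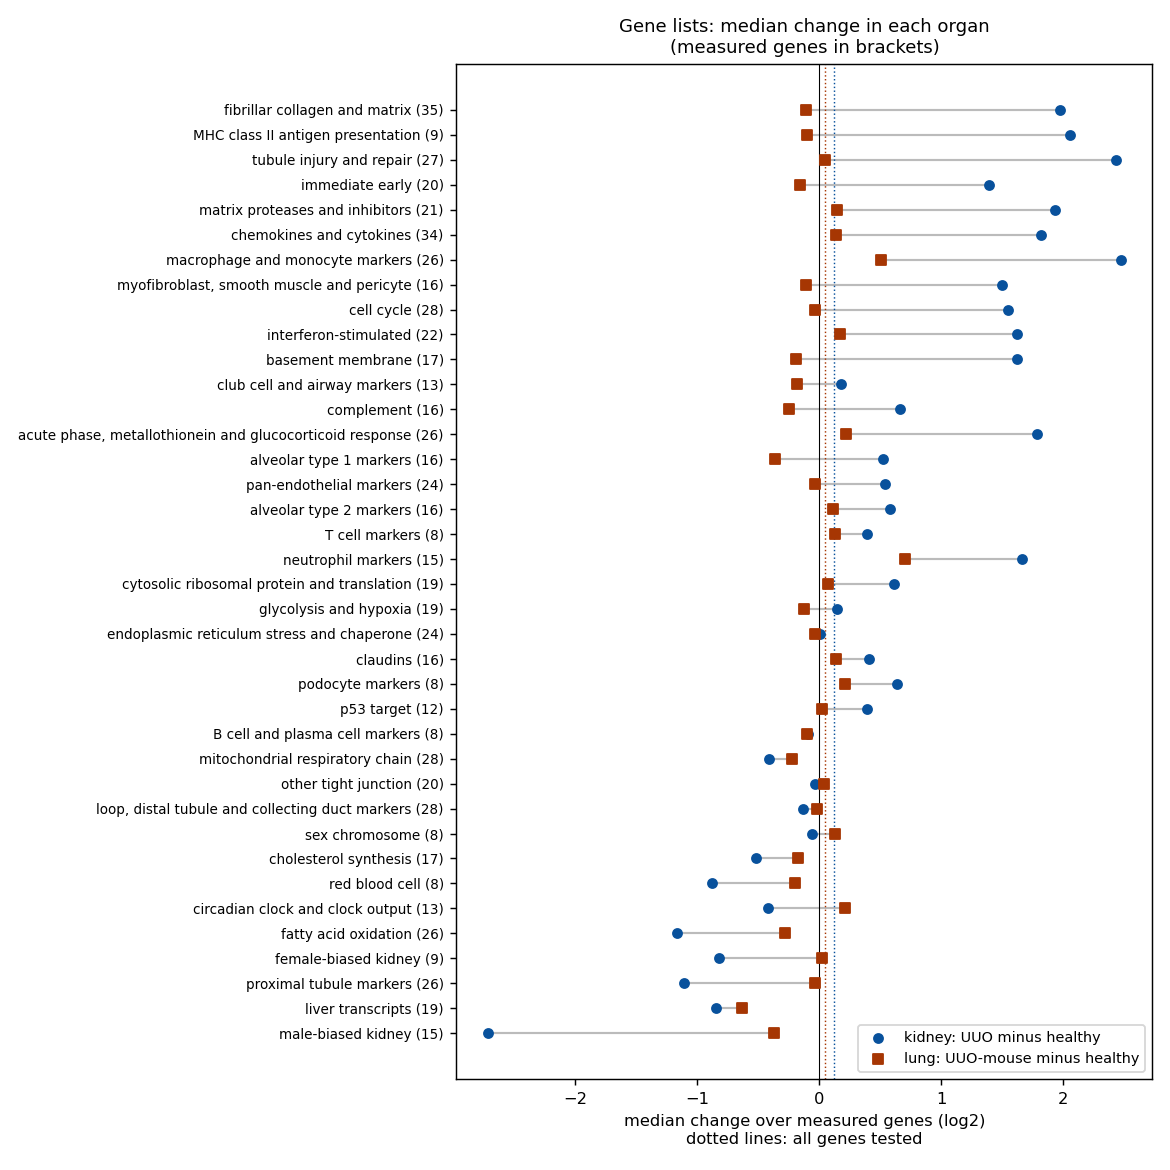
Median change over the measured genes of each list with at least 8 of them, in kidney (circles) and lung (squares), on the log2 scale, ordered by the median difference. Matrix, antigen presentation and injury lists lie near 2 in kidney and near 0 in lung, and the dotted lines mark all genes tested (0.12 in kidney and 0.05 in lung).

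The series title concerns claudins, the sealing proteins of tight junctions, and the vessels of organs. Of 16 claudins, 4 were higher in the difference and 1 lower (median 0.39). The calls of the list as a whole were near the share of all genes, 27.6%. Cldn4, of collecting duct and airway epithelium, was at 8.24, 7.87 and 8.96 in the healthy and at 12.11 and 12.92 in the UUO kidneys, while the lungs overlapped between 5.21 and 7.46 (difference 3.30 ± 0.66, adjusted p = 0.00319). Cldn3 had 2.41 ± 0.38, Cldn6 1.83 ± 0.36 and Cldn10, which rose in lung (1.03), -1.58 ± 0.43. Cldn5, the claudin of endothelium, was at 7.99, 8.18 and 7.87 in the healthy and at 9.03 and 8.29 in the UUO kidneys, and at 12.99, 13.07 and 12.63 in the healthy and 13.32, 13.23 and 13.44 in the UUO-mouse lungs. It was slightly higher after UUO in both organs, past the threshold in kidney (0.64 ± 0.21, adjusted p = 0.027) and not in lung (0.43 ± 0.19, adjusted p = 0.158), with a difference of 0.21 ± 0.28 (interval -0.40 to 0.83). Of 24 pan-endothelial markers, 10 were higher (6 without UUO kidney 2) and 1 lower (median 0.65). Eng, endoglin, rose in kidney (0.96 ± 0.15) and fell in lung (-0.62 ± 0.13), and the receptor Kdr was lower in the difference (-1.27 ± 0.29). Of 20 other tight junction genes, 3 were higher and 2 lower, shares near those of all genes. Among them were the receptor Cxadr at 1.44 ± 0.27 and the polarity genes Mpp5 at -1.72 ± 0.27 and Pard6b at -1.12 ± 0.24.

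Some lung epithelial transcripts were among the largest kidney rises. Scgb1a1, the secretoglobin of airway club cells, was at background in the healthy kidneys (4.49, 4.47 and 4.36) and at 12.35 and 11.23 in the UUO kidneys, at least 93.1-fold higher, against 14.26 to 15.03 in all lungs. The difference was at least 6.12 (adjusted p = 4.33e-07). The surfactant protein Sftpd was at 9.41 and 8.65 in the UUO kidneys (at least 13.7-fold higher), Sftpc at 9.11 and 7.63 (at least 8.71-fold) and the phosphate transporter Slc34a2 at 6.77 and 8.41 (at least 5.08-fold). Other genes of the same cells were not at such levels: Sftpa1 was at 5.55 and 4.76, Sftpb at 4.82 and 5.27, Cxcl15 at 4.91 and 4.51 and the lung transcription factor Nkx2-1 at 4.86 and 5.0. Over the whole lists, 12 of 16 alveolar type 2 markers were above background in each UUO kidney and 6 or 7 in the healthy kidneys, and 6 or 7 of 13 club cell markers against 3 to 5. UUO kidney 1 was above UUO kidney 2 for Scgb1a1, Sftpd and Sftpc and below it for Slc34a2. The part of lung RNA in the other kidney changes was not tested. Of 16 alveolar type 1 markers, many of which other epithelia express, 7 were higher in the difference and 1 lower, with Pdpn at 3.16 ± 0.31, Emp2 at 2.59 ± 0.22 and Clic5 at -1.37 ± 0.34.

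Among the 143 genes called in opposite directions, 107 rose in kidney and fell in lung and 36 did the reverse. Ankrd1, a muscle ankyrin repeat protein and a target of the mechanosensitive YAP and TEAD factors, was at 5.47, 5.53 and 5.75 in the healthy and at 9.90 and 10.92 in the UUO kidneys. In lung it was at 11.23, 12.59 and 9.74 in healthy and at 9.44, 8.42 and 9.63 in UUO mice. The groups did not overlap in either organ, although healthy lung 3 lay only just above the UUO-mouse lungs. Ankrd1 rose by 4.83 ± 0.65 in kidney (28.4-fold) and fell in lung (-2.03 ± 0.59, adjusted p = 0.0461), and the difference was 6.86 ± 0.88 (adjusted p = 0.000217). Its place in the class was lost in 11 of 28 other settings, though its further probe gave 3.52 and -2.74. Fn1, fibronectin, was at 6.61, 6.61 and 6.85 in the healthy and at 9.28 and 10.16 in the UUO kidneys, and at 9.18, 9.20 and 9.96 in the healthy and 7.56, 8.14 and 6.92 in the UUO-mouse lungs. The lungs started where the UUO kidneys ended and moved down (3.03 ± 0.39 in kidney, -1.91 ± 0.35 in lung, difference 4.94 ± 0.52, adjusted p = 6.01e-05). A second probe of Fn1 gave 1.22 and -0.58, and another, near background, 0.27 and -0.04.

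Nes, nestin, an intermediate filament of progenitor and vessel-associated cells, had groups far apart for their spread: 6.12, 6.15 and 6.41 against 8.55 and 8.96 in kidney, and 9.13, 8.90 and 9.10 against 7.74, 7.55 and 7.69 in lung. It rose by 2.52 ± 0.20 and fell in lung (-1.39 ± 0.18), and it stayed in the class in all 28 other settings, while a dimmer probe gave 1.74 and -0.40. Hspb1, the small heat shock protein HSP27, was at 7.48, 7.96 and 8.32 against 10.14 and 11.31 in kidney and at 10.88, 10.54 and 10.80 against 9.34, 9.71 and 9.11 in lung. Mmp2, gelatinase A, fell in lung within narrow groups (10.99 to 11.02 against 10.17, 10.08 and 10.06) and rose in kidney by 3.16 ± 0.20. All 3 UUO-mouse lungs thus lay below all 3 healthy lungs for each of these genes. The phosphatase Dusp8 (2.92 in kidney, -0.92 in lung), the calcium sensor Hpcal4 (2.79 and -1.29) and the death-effector protein Pea15a (2.14 and -1.68) completed the leading 8, with the class lost in 9 settings for Hpcal4 and 7 for Dusp8. From the lists, 6 matrix genes, chosen here after their values were seen, were in this class: Fn1, the collagen VI chains Col6a1 (1.97 and -0.59) and Col6a2 (1.85 and -1.14), Sparc (2.40 and -0.73), the procollagen processing enhancer Pcolce (0.85 and -0.83) and Ccn1, a matricellular YAP target (2.23 and -1.28). The matrix-associated Mmp2, the contractile Tpm1 (1.64 and -0.65) and Myl9 (0.77 and -1.0), the flow-responsive Klf2 (1.09 and -0.86) and Csf1r (1.05 and -0.51) were in it too.

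The recognition core of TEAD factors, GGAATG, was looked for on both strands in the 250 bases before the start of each gene (RefSeq promoters, GRCm38.p6; the first listed start of a gene). It occurred in 13 of the 83 genes of the kidney-up, lung-down class that had a promoter entry (15.7%) and in 1046 of 9384 of all genes tested (11.1%), a share near the background. The stretches around the matches of Ankrd1, Ccn1 and Hspb1 are shown because these genes are in the class and carry the core, Ankrd1 and Ccn1 as textbook targets; capitals mark the core, and CATTCC is the same core on the other strand. The windows are chr19:36119932-36120084 (minus strand), chr3:145650053-145650118 (minus strand) and chr5:135887840-135887905 (plus strand). A match describes the letters and does not show a binding site.
Ankrd1: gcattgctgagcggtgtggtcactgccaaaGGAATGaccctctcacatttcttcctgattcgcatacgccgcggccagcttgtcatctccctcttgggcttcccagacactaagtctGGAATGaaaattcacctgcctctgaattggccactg
Ccn1: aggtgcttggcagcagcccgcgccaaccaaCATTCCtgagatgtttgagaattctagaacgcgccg
Hspb1: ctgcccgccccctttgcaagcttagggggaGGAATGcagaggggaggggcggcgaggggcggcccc

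Genes of the reverse kind fell in kidney and rose in lung. Ffar3, a receptor for short-chain fatty acids, was at 7.84, 8.11 and 7.98 in the healthy and at 5.59 and 5.80 in the UUO kidneys, and at 5.34, 4.93 and 5.29 in the healthy and 6.68, 6.37 and 6.55 in the UUO-mouse lungs. No sample overlapped between the groups of an organ (difference -3.63 ± 0.22, adjusted p = 1.65e-06), and the class held in all 28 other settings, as it did for the peroxisomal tether Acbd5 (-1.98 in kidney, 1.17 in lung, difference -3.15 ± 0.29). ND5, a mitochondrial gene of respiratory complex I, was at 8.67, 8.50 and 8.53 in the healthy and at 5.44 and 7.63 in the UUO kidneys, and rose in lung from 6.44, 6.84 and 6.59 to 8.41, 7.82 and 8.48. The 2 UUO kidneys stood far apart from each other for ND5, and its class was lost in 10 of 28 settings. The methionine sulfoxide reductase Msrb1 (-1.45 and 1.09, but -2.26 and -0.14 for a second probe above background in all 14 samples), the poly(A) polymerase Papola (-1.78 and 0.69), the exchange factor Arhgef39 (-1.50 and 0.85), Decr1 of fatty acid oxidation (-1.46 and 0.71) and the transferrin receptor Tfrc (-1.43 and 0.74) followed. The class was lost in 12 settings for Decr1, 9 for Papola and 8 for Arhgef39.

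**Figure D4:**
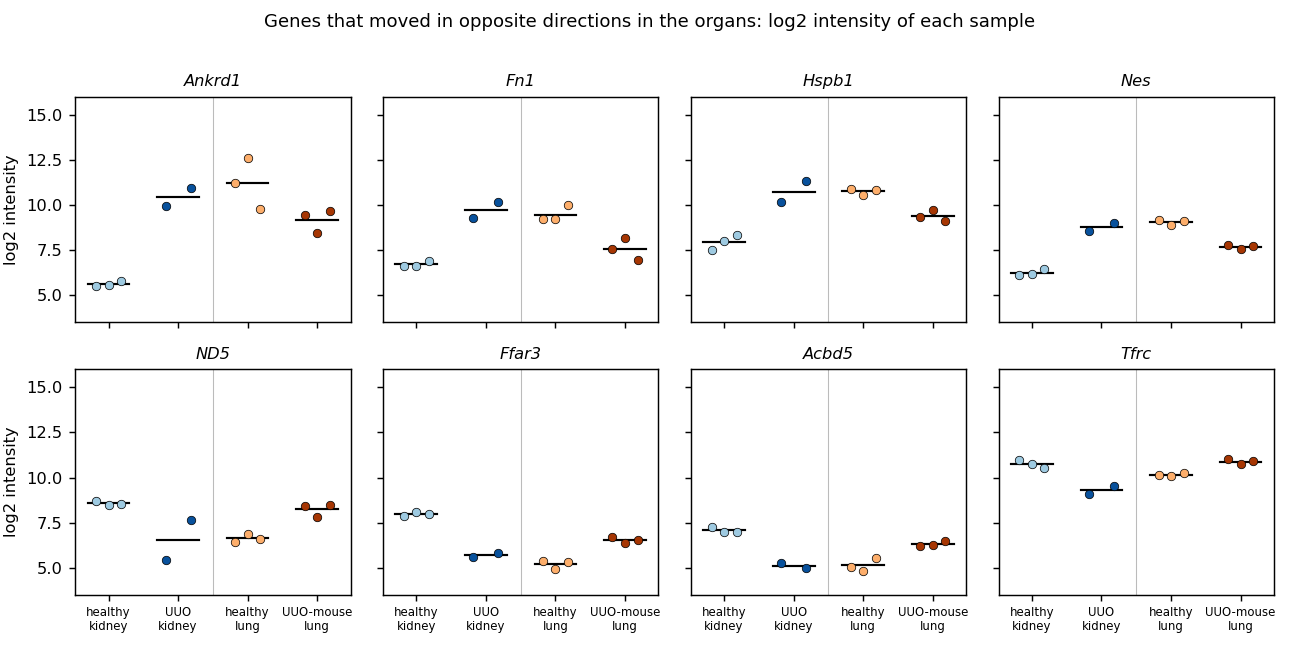
Log2 intensity of each sample (points) and group means (bars) for 4 genes that rose in kidney and fell in lung (upper row) and 4 that fell in kidney and rose in lung (lower row). In the upper row the healthy lungs lie above the UUO-mouse lungs while the healthy kidneys lie below the UUO kidneys, and the lower row shows the reverse.

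Of the 506 genes changed alike, 304 rose and 202 fell in both organs. In 500 of them the UUO and healthy samples did not overlap in either organ. The genes were picked by passing in both organs with groups of 2 or 3 samples, so this count is no separate evidence. The share over all genes is not given here. For 402 of the 506 the difference of the effects did not pass, and for 300 its 95% interval lay within 1 log2 unit of 0; for the remaining 104 it passed, so the change had the same direction and an unequal size. The largest shared changes were those of Xist (at least 40.3-fold higher in UUO kidney and at least 88.5-fold higher in UUO-mouse lung) and Eif2s3y (at least 17-fold and 21-fold lower). Of 8 measured sex chromosome genes, 5 were alike: these 2, the Y-linked Kdm5d, and the X-linked Kdm6a and Eif2s3x, which escape X inactivation (0.75 and 0.55 in kidney, 0.89 and 0.74 in lung). Of the 8, 2 were alike without the lungs with liver transcripts and 3 without UUO kidney 1.

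Outside the sex chromosomes, Spon2 and Lox had the largest shared rises by the smaller of the 2 changes. Spon2, a matrix protein with a part in innate immunity, was at 4.48, 4.41 and 5.51 in the healthy and at 6.11 and 8.67 in the UUO kidneys, and at 7.94, 7.90 and 7.56 in the healthy and 10.92, 9.35 and 10.15 in the UUO-mouse lungs. All UUO samples lay above the healthy ones, with a wide gap between the UUO kidneys (2.59 ± 0.62 in kidney, 2.34 ± 0.56 in lung, difference 0.25 ± 0.84, interval -1.57 to 2.07). Spon2, Oas2 and Ms4a6d each lost their place among the alike genes in 6 of 28 other settings, and the highest adjusted p of the kidney change of Spon2 over these settings was 0.0826 (limma). Lox, the enzyme that crosslinks collagen, was at background in the healthy kidneys (4.57, 4.41 and 4.64) and at 8.65 and 10.01 after UUO, at least 16.9-fold higher. In lung it rose from 8.89, 8.86 and 8.26 to 9.54, 11.36 and 10.57 (1.83 ± 0.41, adjusted p = 0.0182). Lox rose more in kidney (difference at least 2.26, adjusted p = 0.00399), as did the macrophage genes Ms4a6d (4.54 and 1.66) and Fcgr4 (3.19 and 1.45), an activating Fc receptor. Another probe of Ms4a6d, above background in 11 of 14 samples, gave 1.99 and 1.51, with a difference of 0.48 that did not pass.

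Dnm3os, a noncoding transcript that hosts a microRNA cluster of fibroblasts, rose in both organs (1.68 ± 0.33 and 1.47 ± 0.29, difference 0.21, interval -0.75 to 1.17), but its second probe, at background in most samples, gave 0.00 and -0.14. The transcript C430049B03Rik rose by 1.49 ± 0.28 and 1.57 ± 0.25, the RNase Zc3h12d by at least 2.17-fold in kidney and by 1.39 ± 0.36 in lung, and Parm1 by 1.82 ± 0.38 and 1.33 ± 0.34. Parm1 lost its place in 10 of 28 other settings and Zc3h12d in 9, and the second probe of C430049B03Rik gave 0.50 and -0.66. Other probes of the genes alike and higher had the same direction in 60.7% of 196 in kidney and 56.6% in lung. The shares were 80.3% and 71.4% of 147 probes for the genes alike and lower and 82.4% and 75.8% of 91 for the opposite genes.

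The macrophage list shows which members were shared: Mrc1, the mannose receptor (3.35 in kidney, 0.70 in lung), the Fc receptors Fcgr1 (2.18 and 1.09) and Fcgr4, Aif1 (2.40 and 0.70), the protease Ctss (1.94 and 0.59) and the pore-forming Mpeg1 (0.48 and 0.82). These 6 of 26 were chosen after their values were seen, and 3 were alike without the lungs with liver transcripts. Ccr2, the receptor of inflammatory monocytes, rose in lung (1.6 ± 0.42) and was at 1.12 ± 0.46 in kidney (adjusted p = 0.0698). Of 5 natural killer and cytotoxic markers, 4 rose in kidney and 3 in lung. Klrd1, the CD94 chain of natural killer receptors, was at 7.27, 7.35 and 7.06 in the healthy and at 8.51, 8.42 and 8.94 in the UUO-mouse lungs, and at background in the healthy kidneys (4.96, 4.86 and 5.01) against 6.40 and 5.83. Without UUO kidney 1, 2 rose in kidney. Klrd1 and the granule protein Nkg7 rose in both organs and Klre1 in lung alone (difference -1.23 ± 0.28, adjusted p = 0.00681). The membrane protease Mmp14 (3.78 and 0.70), the laminin chain Lamc1 (1.82 and 0.78), the stress factor Cebpd (1.63 and 0.77), the sterol factor Srebf2 (0.95 and 0.88) and the lipid desaturase Scd1 (1.89 and 1.24) were further shared members of their lists, chosen after their values were seen.

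Of 22 interferon-stimulated genes, 14 were higher in the difference and none lower (median 1.48), with Irf7 at 2.34 ± 0.24 (adjusted p = 5.66e-05) and Ifit2 at 1.78 ± 0.26; 18 rose in kidney, while 3 rose and 2 fell in lung. Oas2, an RNA-sensing oligoadenylate synthetase, was at 4.53, 4.94 and 5.04 in the healthy and at 7.13 and 8.21 in the UUO kidneys, and at 5.93, 6.73 and 6.6 in the healthy and 7.67, 8.30 and 8.12 in the UUO-mouse lungs. It was higher in every UUO sample of both organs (at least 5.36-fold in kidney, 1.61 ± 0.39 in lung), as were Oas1g (2.47 ± 0.35 and 1.05 ± 0.31) and the GTPase Mx2 (1.66 and 0.81). Nlrc5, the transactivator of MHC class I genes, was at 4.46, 5.21 and 4.59 against 6.89 and 6.78 in kidney and at 6.54, 6.73 and 6.81 against 8.32, 7.76 and 8.07 in lung, and kept its place in all 28 other settings. The interferon-inducible GTPase Gvin1 rose by 1.71 ± 0.30 and 1.34 ± 0.27. Ifit2 and the immunoproteasome subunit Psmb8 went in opposite directions. Ifit2 was at 7.51, 7.35 and 7.94 against 8.51 and 8.39 in kidney and at 8.69, 8.33 and 8.68 against 7.72, 7.79 and 7.42 in lung. Psmb8 had 1.47 ± 0.27 in kidney and -0.97 ± 0.24 in lung. Without the lungs with liver transcripts, none of the 22 passed in lung.

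The core of the interferon-stimulated response element, 2 GAAA runs with any 2 bases between them (matches may overlap), occurred on either strand in the 250 bases before the start in 10 of the 18 listed interferon genes with a promoter entry (55.6%), against 257 of 9384 of all genes tested (2.74%) and 8 of 230 genes alike and higher (3.48%). The list is made of genes known for this element. Isg15 (1.96 ± 0.40 in kidney, 0.32 ± 0.36 in lung), Ifit3 (1.01 ± 0.31 and -0.53 ± 0.27) and the shared Oas1g are shown as genes with the element that did not pass in lung (Isg15 and Ifit3) and that did (Oas1g); capitals mark the matches, and TTTC runs read the other strand. The windows are chr4:156200845-156200926 (minus strand), chr19:34583343-34583446 (plus strand) and chr5:120887614-120887661 (minus strand) in GRCm38.p6.
Isg15: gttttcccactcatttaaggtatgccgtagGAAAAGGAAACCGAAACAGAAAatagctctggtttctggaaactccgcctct
Ifit3: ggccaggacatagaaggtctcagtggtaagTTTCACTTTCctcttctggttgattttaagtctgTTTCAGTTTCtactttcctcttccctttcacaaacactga
Oas1g: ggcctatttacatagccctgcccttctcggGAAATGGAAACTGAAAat

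The named shared falls follow. Acadl, long-chain acyl-CoA dehydrogenase, was at 10.03, 10.11 and 9.98 in the healthy and at 7.56 and 8.49 in the UUO kidneys, and at 7.82, 8.01 and 8.01 in the healthy and 6.23, 6.59 and 6.24 in the UUO-mouse lungs. Both organs fell with no overlap (-2.01 ± 0.25 and -1.59 ± 0.22, difference -0.42 ± 0.33, interval -1.15 to 0.30). But a second, dimmer probe of Acadl, above background in all 14 samples, gave -0.68 and 0.55, with a called difference (-1.22, limma, adjusted p = 0.00452). Acaa2, the mitochondrial thiolase, had -1.97 ± 0.36 and -1.47 ± 0.32, with 2 of 3 further probes near these values and the other at -0.60 and -0.09. With Etfdh (-1.16 and -0.76), these were the 3 shared falls of the fatty acid oxidation list, of which 1 remained alike without the lungs with liver transcripts. Sod3, extracellular superoxide dismutase, was at 9.85, 9.76 and 9.80 against 8.19 and 6.88 in kidney and at 8.66, 8.68 and 8.59 against 6.90, 7.06 and 6.70 in lung (difference -0.51 ± 0.40). The lungs were tightly grouped around a fall of 1.76 on the log2 scale.

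Eef2, translation elongation factor 2, was at 11.03, 10.78 and 11.01 in the healthy and at 9.22 and 9.52 in the UUO kidneys, and at 9.70, 9.86 and 9.38 in the healthy and 7.15, 7.82 and 7.40 in the UUO-mouse lungs. It fell in both (-1.57 ± 0.22 and -2.19 ± 0.20, adjusted p = 0.000161 and 0.000287), and 2 further probes gave values of the same sign (-1.46 and -1.76, -1.6 and -2.32). The Golgi GTPase Rab1b (-1.91 and -1.69), Rab6a (-1.65 and -1.69), the ubiquitin ligase Itch (-1.66 and -1.50), the mitochondrial carrier homolog Mtch2 (-1.97 and -1.45), Pcnp (-1.87 and -1.46) and the synapsin Syn2 (-1.54 and -1.46) fell in both organs with differences between -0.52 and 0.04 that did not pass. Other probes of Rab1b gave -0.35 and -0.31, and of Rab6a between -1.86 and 0.41, and the 2 other probes of Mtch2, above background in all 14 samples, gave -1.02 and -1.11 in kidney but -0.23 and -0.06 in lung, with a called difference for one (-1.04, adjusted p = 0.018). The other probe of Pcnp, above background in 4 of 14 samples, gave -0.44 and 0.01. For Rab1b, Rab6a and Mtch2, and for Acadl in lung, the fall therefore depended on the probe. Sod3, Rab1b, Acadl, Eef2, Itch and Mtch2, each by its brightest probe, kept their place in all 28 other settings. Of 13 circadian genes, the period genes Per2 (-1.49 ± 0.15 and -0.50 ± 0.13) and Per3 (-1.32 ± 0.22 and -0.91 ± 0.20) fell in both organs, chosen after their values were seen. Neither was alike without the lungs with liver transcripts, where no circadian gene passed in lung, and 4 were alike without either UUO kidney in turn. In the difference 3 were lower, with a median of -0.57 that was above 0 under median scaling. The sources used here do not give the time of day of sampling. The respiratory chain genes Sdhb (-0.65 and -0.76) and Cyc1 (-0.50 and -0.85), also fell in both.

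**Figure D5:**
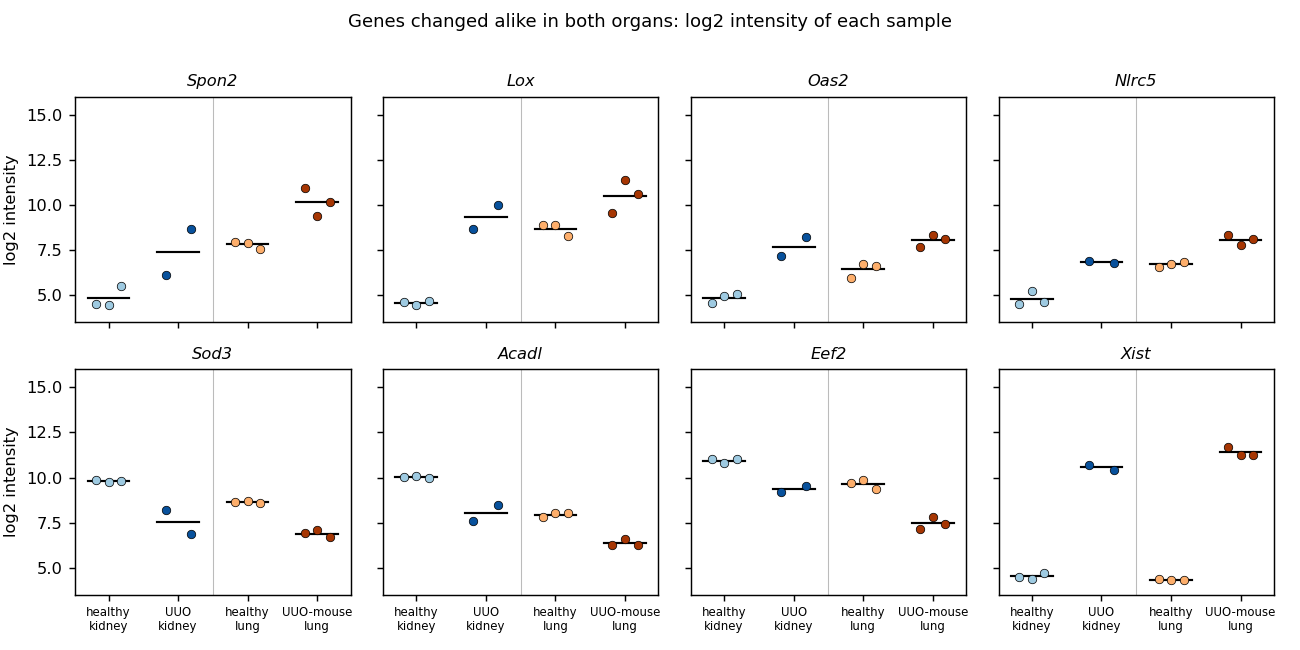
Log2 intensity of each sample (points) and group means (bars) for 8 genes that changed in the same direction in both organs. UUO samples lie above the healthy samples of the same organ for Spon2, Lox, Oas2, Nlrc5 and Xist and below them for Sod3, Acadl and Eef2, with Xist at background in all 6 healthy samples.

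Of the 329 genes that changed more in lung than in kidney, 144 rose and 185 fell in lung. Gsn, gelsolin, an actin-severing protein, had the largest fitted fall of this class: 9.45, 9.07 and 9.12 in the healthy and 5.19, 5.10 and 4.80 in the UUO-mouse lungs, with the probe at background in all kidneys (4.43 to 4.98). The lung change was -4.18 ± 0.31 (18.1-fold, adjusted p = 6.65e-05), while a second probe of Gsn gave -1.67. The difference of Gsn was 3.90 ± 0.46, against 0.99 for the second probe. It was 1.01 when array 2 alone stood for UUO-mouse lung 2 (limma, adjusted p = 0.0593) and 0.64 with the deposited matrix values (limma, adjusted p = 0.224). Both settings picked the brightest probe of a gene anew, so these values can be those of another probe. The first does not show a dependence on the repeat array. Smad6, an inhibitor of BMP signalling enriched in endothelium, was at 8.72, 8.44 and 8.67 in the healthy and at 6.35, 6.21 and 5.99 in the UUO-mouse lungs, and fell less in kidney (-2.42 ± 0.19 and -0.64 ± 0.21, difference 1.78 ± 0.28). The phospholipid transfer protein Pltp fell in lung (-2.22 ± 0.26) and rose in kidney, where it was at background in the healthy samples (at least 1.26-fold). Lrat, which stores retinol as esters, fell in lung (-1.81 ± 0.38), as did the lymphatic chemokine Ccl21c (-1.77 ± 0.36), whose copies are near-identical, and the AP-1 subunit Jund (-1.75 ± 0.20).

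The lung rises among the genes that changed more in lung were smaller. Smarcc1, a core subunit of SWI/SNF chromatin remodelling, was at 4.86, 4.97 and 4.82 in the healthy and at 6.24, 6.33 and 6.13 in the UUO-mouse lungs, while the kidneys fell from 6.31, 6.26 and 6.26 to 5.72 and 5.69 (1.35 ± 0.10 and -0.57 ± 0.12, difference -1.92 ± 0.15, adjusted p = 1.24e-05). The gap junction gene Gjb6 (1.38 ± 0.19), the neuronal adhesion gene Cntnap2 (1.43 ± 0.29) and the cofilin phosphatase Ssh2 (1.28 ± 0.19) were at background in kidney. Dnajb13, a protein of motile cilia, rose by 1.36 ± 0.33 and the zinc finger gene Zfp763 by 1.26 ± 0.20, whose second probe gave 0.31. Gjb6, Smarcc1, Ssh2, Jund, Pltp and Smad6 kept their place in all 28 other settings, while it was lost in 18 for Cntnap2, 16 for Ccl21c and 13 for Dnajb13.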

How the data were processed

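Total RNA was extracted with TRIzol and labelled as cRNA for Illumina arrays, per the labels' protocols. The deposited values are probe signal intensities with a detection p-value per probe and array, per the file headers, and GenomeStudio 5.0 is named in the submitters' processing notes. The sources used here do not state other steps before export or the slide of each array. A second deposited matrix holds intensity values of the same arrays with unstated background subtraction and scaling; 47.7% of them lay below the floor of 16 set before log2.

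Intensities were corrected with normexp using detection p-values, quantile normalized and put on the log2 scale (neqc, offset 16; R 4.3.3, limma 3.58.1). Raw median signals per array were 95.2 to 125. Precision is limited by how few arrays there are. Of 45281 probes, 34885 had 1 gene symbol in the platform annotation, 18 several and 10378 none. Probes were kept where 2 or more samples had a detection p below 0.01 (21048, of which 18022 had 1 gene), and each of 11648 genes was represented by its brightest probe on average. The 2 arrays of UUO-mouse lung 2 (correlation 0.981) were averaged first. lmFit and eBayes were fitted over 5 groups (residual df 9, prior df 3.06), with Benjamini-Hochberg adjustment over all genes and a threshold of 0.05. Background means a detection p of at least 0.05 in every sample of a group. On simulated data with 200 changed genes of 11648, the test of the difference recovered 26% of changes of log2 size 1 and 81% of log2 size 2, with 9 false calls. The simulation changed UUO kidney only, gave the groups otherwise equal means and drew independent normal noise. In the data 27.6% of genes passed and the lung changed too, so these rates need not hold there.

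Alike and opposite genes passed in both organs. Named genes were the 10 highest and 10 lowest differences among genes with kidney groups apart and a probe detected throughout at least 1 group of each organ, the 5 largest kidney changes each way among genes at background in every lung sample (genes detected in some lung samples fall under neither), 12 each way alike (by the smaller change), 8 each way opposite, 6 each way that changed more in lung, up to 2 members each way per list (by adjusted p), and 10 genes always named. Members, gene lists and tests were chosen with earlier results of these data known. Mice H557, H563, H565 and H658 gave both organs, per the labels; deviations of their paired samples correlated at -0.122 to 0.185, against -0.565 to 0.548 for pairs of different mice, and the replicate numbers do not follow the mice. Alternatives covered background correction, scaling, the deposited matrix, probe filters and choice, moderation, array weights, blocks, the repeat array and leaving out samples.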

Additional observations from a re-analysis of the deposited data

Results flagged for a closer look

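The following were picked because the test of the difference between the kidney and the lung effect passed, as it did for 3215 genes in all. Values are fitted log2 differences, kidney minus lung. For genes with a group at background they are fitted values and no bound.

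Differences above 0 in genes measured in both organs were those of Lcn2 (8.0), Scgb1a1 (6.92), Ankrd1 (6.86), Timp1 (5.98), Serpina10 (5.59), Atf3 (5.33), Ear3 (5.26), Fcrls (5.05), Fn1 (4.94) and Ccl9 (4.93). Serpina10 lost its call in 5 of 29 other settings. Differences below 0 were those of Acsm3 (-7.19), Cyp4b1 (-4.32), Slc22a22 (-4.29), Inmt (-4.18), Hsd17b11 (-4.16), Cyp4b1-ps2 (-3.90), Ugt1a7c (-3.66), ND5 (-3.64), Ffar3 (-3.63) and Ces1f (-3.56). Genes at background in lung were Krt20 (5.53), Adamts4 (4.62), Cyp4a14 (4.43), Sprr2g (4.23) and Sprr2f (3.92), whose call was lost in 14 of 29 settings, and Cyp2d12 (-5.17), Cyp2j13 (-4.74), 3110040M04Rik (-4.62), Ct55 (-4.62) and Tbx10 (-3.87).

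Of the named genes alike in both organs, Lox (2.96), Ms4a6d (2.88) and Fcgr4 (1.74) changed unequally by their brightest probe. Another probe of Ms4a6d gave 0.48, which did not pass. The opposite genes were Hspb1 (4.16), Hpcal4 (4.08), Mmp2 (4.06), Nes (3.91), Dusp8 (3.84), Pea15a (3.81), Acbd5 (-3.15), Msrb1 (-2.54), Papola (-2.46), Arhgef39 (-2.36), Decr1 (-2.17) and Tfrc (-2.17), besides Ankrd1, Fn1, ND5 and Ffar3 above. Genes that changed more in lung were Cntnap2 (-1.24), Gjb6 (-1.22), Dnajb13 (-1.54), Smarcc1 (-1.92), Ssh2 (-1.26), Zfp763 (-1.52), Gsn (3.90), Smad6 (1.78), Pltp (3.01), Lrat (2.01), Ccl21c (1.58) and Jund (1.26).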

How the results depend on the processing

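Values are counts of genes in the order difference, kidney, lung, alike, opposite and more in lung, which were 3215, 5003, 1265, 506, 143 and 329 as reported. Testing every kept probe (21048) gave 5829, 9187, 2530, 1070, 271 and 632, by its construction over more features. With a threshold of at least 2-fold added, 2553 passed in kidney and 260 in lung, 89 were alike, 20 opposite and 82 more in lung. Under median scaling 274 were alike (24 higher and 250 lower), 433 opposite and 652 more in lung (7 higher and 645 lower); the cause was not tested. Median scaling moved the median of all genes to 0.33 in kidney and -0.25 in lung, and the deposited matrix values to -0.21 and -0.11. With the matrix values 12.7% of the alike genes were higher (60.1% as reported) and 20.1% of those that changed more in lung (43.8%). Array weights gave 2924 in lung, 781 alike and 261 opposite, and the cause was not tested. Without healthy lung 3 and UUO-mouse lung 1 there were 345 in lung, 114 alike, 39 opposite and 185 more in lung, with fewer samples.

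Leaving out 1 replicate at a time gave 2585 to 3647, 3741 to 5025, 303 to 1663, 119 to 626, 41 to 202 and 114 to 376; an organ group left with 1 sample was assumed to vary like the others. The replicate number as a block gave 2980, 4718, 940, 358, 115 and 256, none beyond 1.5 times. The numbers do not pair the mice; animal as a random block (consensus correlation 0.0788) gave 3412 for the difference and 502 alike. Within-mouse differences of the 4 mice with both organs, 1 of them with UUO, gave 1428 for the difference (846 higher and 582 lower). Of the single-gene values under all alternatives, 4524 kept their side of the threshold, 222 no longer passed and 36 passed where they had not. Values that passed in neither setting could change sign and still count among the 4524. The 1 that reversed was Cd3e, at -0.35 with the matrix values (limma, adjusted p = 0.61) against 1.04. Settings that changed the normalization, the probe filter or the arrays of UUO-mouse lung 2 picked the brightest probe of each gene anew. A gene can therefore be read by another probe there. Probes near background bound what can be seen, and 161 of the called differences had no lung signal.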

Other observations

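Mouse H658 gave both a UUO kidney and a lung, and its kidney-minus-lung value can be set beside those of the healthy mice H557, H563 and H565, with 1 UUO mouse and no test. For Fn1 it was 2.03 against -2.59, -2.57 and -3.11, and for Ankrd1 2.51 against -7.12, -5.70 and -4.0. For Nes it was 1.40 against -2.78, -2.98 and -2.69. These 3 genes were higher in lung than in kidney in each healthy mouse and higher in kidney in H658. Ffar3 had the reverse, -0.58 against 2.91, 2.77 and 2.69. For the shared gene Eef2 it was 1.69 against 1.17, 1.08 and 1.63, and for Oas2 -0.09 against -2.21, -1.0 and -1.56.

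Of 8 podocyte markers, 4 rose in kidney and 1 in lung (medians 0.64 and 0.21). Of 8 red blood cell genes, 4 fell in kidney (median -0.88) and none passed in lung. None of the 4 fell without UUO kidney 1.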
